A study of Rattus norvegicus with 8 samples.

Results

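The synaptic vesicle and exocytosis machinery was followed across brain region and Pax6 genotype in E12.5 rat embryos (E for embryonic day). Members were all probe sets of the array whose single gene symbol in the platform annotation belonged to the synaptotagmin, syntaxin, SNAP, VAMP, synapsin, syntaxin-binding, Rab3, SV2, complexin, neurexin, neuroligin or Unc13 families. Syp, Syngr1, Nsf, Napa, Napb, Rph3a, Bsn and Pclo were added by name, and the rule itself uses no measured value. The rule found 61 genes of the 4736 with a probe set of their own, read by 87 of the array's 8799 probe sets, and 21 genes were read by more than 1 probe set. Because the rule goes by letters, it also took the Rab GTPases Rab33b, Rab34 and Rab38 and the clathrin assembly protein gene Snap91. They are described as a role of their own, but all counts, shares and medians of members include them.

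RNA was extracted from Pax6 homozygous forebrain, wild-type forebrain, Pax6 homozygous hindbrain and wild-type hindbrain parts, with 2 Affymetrix rat U34A arrays for each of these 4 groups. The labels do not name the Pax6 allele carried by the Pax6 homozygous embryos, and they do not say how many embryos or litters went into an array. Because the cut ran through the isthmus, midbrain, eye and nose primordia were collected with the forebrain, and pharyngeal arches with the hindbrain. Values are intensities per probe set on a linear scale, and p-values rest on the spread between arrays of a group, which may be technical.

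Release of neurotransmitter uses the same fusion machinery as other membrane traffic. A vesicle SNARE (a VAMP) pairs with target-membrane SNAREs (a syntaxin and a SNAP) to bring membranes together, and NSF with its SNAP adaptors takes the complex apart afterwards. Syntaxin-binding and Unc13 proteins and complexins control assembly, synaptotagmins act as calcium sensors, Rab3 proteins tether vesicles, and synapsins, synaptophysin and SV2 proteins sit on the vesicle. At the age studied here many neurons are still to be born, so much of the tissue consists of dividing progenitors and non-neural cells. These also need the general forms of this machinery.

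Promoter sequences, from 250 bases before to 50 bases after the annotated start, were matched by gene identifier in a RefSeq table of build GRCr8 for 48 of the 61 genes. They are shown for Stxbp2, the 1 member past the test in any comparison, for Syt4, whose arrays did not overlap between regions, for the vesicle protein gene Syp, and for Unc13a, where both parts of a REST element were found. All are written 5′ to 3′ on the strand of the gene. Capitals mark GC boxes (GGGCGG, either strand) and the parts of RE1, the element of the neuronal repressor REST (TTCAGCAC and GGACAGC, either strand). Stxbp2 lies at chr12:6487076-6487375 on the + strand, Syt4 at chr18:23320814-23321113 on the - strand, Syp at chrX:17536400-17536699 on the - strand and Unc13a at chr16:18415737-18416036 on the - strand.
Stxbp2: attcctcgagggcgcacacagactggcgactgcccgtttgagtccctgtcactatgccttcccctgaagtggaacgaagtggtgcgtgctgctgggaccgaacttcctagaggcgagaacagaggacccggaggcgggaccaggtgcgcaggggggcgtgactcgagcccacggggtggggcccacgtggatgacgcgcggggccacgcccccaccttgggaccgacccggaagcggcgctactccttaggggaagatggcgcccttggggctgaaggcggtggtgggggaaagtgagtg
Syt4: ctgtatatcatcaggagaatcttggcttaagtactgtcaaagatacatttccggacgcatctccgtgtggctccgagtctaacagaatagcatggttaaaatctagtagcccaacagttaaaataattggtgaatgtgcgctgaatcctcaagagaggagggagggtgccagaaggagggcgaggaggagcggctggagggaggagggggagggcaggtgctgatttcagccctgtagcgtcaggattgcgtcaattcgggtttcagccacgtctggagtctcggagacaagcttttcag
Syp: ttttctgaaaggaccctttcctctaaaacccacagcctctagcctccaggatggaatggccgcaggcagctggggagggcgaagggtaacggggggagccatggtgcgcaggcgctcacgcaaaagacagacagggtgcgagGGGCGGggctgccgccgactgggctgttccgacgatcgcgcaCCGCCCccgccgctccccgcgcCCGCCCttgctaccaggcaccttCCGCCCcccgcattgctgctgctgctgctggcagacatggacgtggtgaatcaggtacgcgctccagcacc
Unc13a: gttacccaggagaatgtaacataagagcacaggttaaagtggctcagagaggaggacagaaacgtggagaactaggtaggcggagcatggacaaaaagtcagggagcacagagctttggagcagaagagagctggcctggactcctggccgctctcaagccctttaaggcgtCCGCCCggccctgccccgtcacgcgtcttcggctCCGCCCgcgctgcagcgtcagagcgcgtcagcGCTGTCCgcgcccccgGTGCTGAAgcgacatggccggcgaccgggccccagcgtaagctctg
The Syp window held 4 GC boxes and the Unc13a window 2, and none of the motifs searched was found in the Stxbp2 and Syt4 windows. In Unc13a both parts of RE1 lay on the opposite strand with 9 bases between them. A GC box was present in 69.4% of 49 member windows, against 41.8% of 21851 windows of protein-coding genes and 33.1% of all 33469 windows in the table. The shorter RE1 part GGACAGC was in 16.3% of member windows (Rab3c, Rab3ip, Rph3a, Stx3, Syt2, Syt6, Unc13a and Unc13b), against 7.07% of coding and 6.59% of all windows. The part TTCAGCAC was in 2.04% of member windows (Unc13a), against 1.05% of coding and 1.02% of all windows. The cyclic AMP response element TGACGTCA was in 6.12% (Napa, Syn1 and Vamp1), against 2.1% and 1.83%. No member window held TATAAA, which was in 13% of coding and 14.2% of all windows. Unc13b was counted with 2 windows, and these matches are letters in a window, not measured binding.

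At most 61.2% and at least 48.8% of all probe sets of an array exceeded its noise level, which was set at the size of the 5th percentile of its intensities (243 to 619.8). The first array of a group read above the second in all 4 groups for 17 of the 56 members tested (30.4%, against 26.3% of all probe sets tested), and below it in all 4 for 7 of 56 (against 12.6%). The noise level of the first array was also the higher one in every group. Members with this order included Unc13a, Syn1, Snap29 and Vamp2 (first above second) and Vamp3 (first below second), so part of the spread given for them below follows the array number.

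At this age both general membrane-fusion genes and a subset of neuronal release genes were read above noise. Of the 61 genes, 22 had a probe set above noise on all 8 arrays, 20 on 1 to 7 arrays and 19 on none. By probe set, 27 of 87 were above noise on all arrays and 34 on none. Over all probe sets other than controls, 42.8% were above noise on all arrays and 34.2% on none. Target-membrane SNAREs stood at 11 of 20 probe sets above noise on all arrays and vesicle SNAREs at 4 of 7. Calcium sensors stood at 1 of 15, SNARE regulators at 1 of 7 and trans-synaptic adhesion genes at 0 of 6. Probe sets of the same gene also differed in brightness, and 5 genes had 1 probe set above noise on all arrays and another on none. Intensities of different probe sets are therefore not compared as transcript levels.

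**Figure D1:**
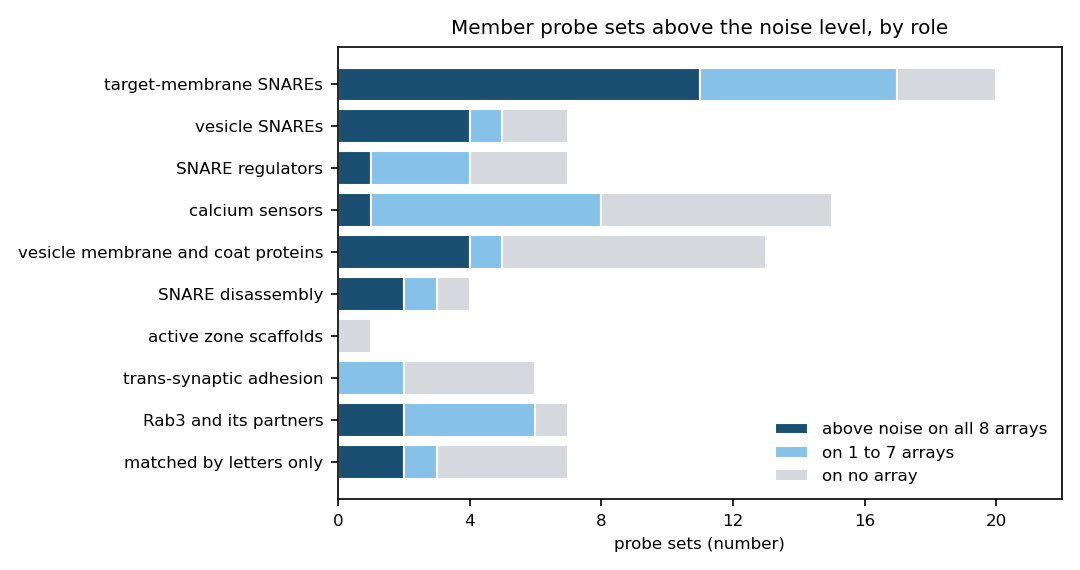
Number of member probe sets in each role, split by the number of arrays on which their intensity exceeded the noise level of that array: all 8 arrays (dark), 1 to 7 arrays (light) or none (grey). Target-membrane SNAREs had 11 of 20 probe sets above noise on all 8 arrays, calcium sensors 1 of 15.

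Genes of mature synapses were among those never above noise. They included Syt1, the calcium sensor of fast release, Syn2 and Syn3, synapsins that tie vesicles to actin, Sv2b of the vesicle membrane, and Bsn, the active zone scaffold Bassoon. They also included the neuroligins Nlgn1, Nlgn2 and Nlgn3, which are postsynaptic partners of neurexins, and the complexins Cplx1 and Cplx2. The remaining ones were Syt2, Syt6, Syt7, Syt9, Syt10, Syt12, Stx3, Snap91 and Unc13c. Nsf, the ATPase that separates SNARE complexes, was above noise on 1 of 8 arrays with 1 of its probe sets and on none with the other. A silent gene and an unresponsive probe set cannot be told apart here. Other synaptic genes, among them Syp, Syn1, Sv2a, Snap25, Vamp2, Stx1a, Rab3a and Unc13a, had a probe set above noise on all 8 arrays. Syt1 (X52772cds_at) read 79.2 and 58.8 in Pax6 homozygous forebrain and 12.1 and 72.4 in wild-type forebrain, and 69.2 and 32.9 in Pax6 homozygous hindbrain and 238 and 102 in wild-type hindbrain.

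Members entered the test where 2 or more arrays exceeded an intensity of 255, the 40th percentile of all arrays pooled. This was met by 56 probe sets of 45 genes. Between genotypes, 0 of these 56 passed at an adjusted p of 0.05 (limma, adjusted over all 5881 probe sets tested) in forebrain, in hindbrain or over both regions. The background was 0.017% of all probe sets tested in forebrain, 0.017% in hindbrain and 0.034% over both. An unadjusted p under 0.05 was reached by 2 of 56 in forebrain (3.57%, against 2.92% of all tested), 2 of 56 in hindbrain (3.57%, against 4.49%) and 3 of 56 over both (5.36%, against 5.02%). In the interaction of genotype and region 0 of 56 passed, against 0% of all tested, and 0 of 56 had an unadjusted p under 0.05, against 1.9%. Between forebrain and hindbrain 1 of 56 passed, Stxbp2, against 1.51% of all probe sets tested, and 5 of 56 had an unadjusted p under 0.05 (8.93%, against 8.09%). These shares of members lie near the background.

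The median log2 change over the 45 member genes tested, Pax6 homozygous minus wild-type, was -0.07 in forebrain and -0.07 in hindbrain, beside 0.01 and 0.03 over all 3553 genes tested. Forebrain minus hindbrain it was -0.11, beside -0.01 over all genes. Over all 61 member genes without the filter the medians were 0.00, -0.04 and -0.10. Of the 56 probe sets, 31 had a negative and 25 a positive change in forebrain, 30 a negative and 25 a positive one in hindbrain, and 40 a negative and 16 a positive difference between regions. By gene, 26 of 45 were negative in forebrain (48.3% of all genes tested), 24 of 45 in hindbrain (45.9%) and 30 of 45 between regions (51.9%). On leaving out each array in turn, the sign turned at least once for 33 of the 56 probe sets in forebrain, 32 in hindbrain, 27 over both and 25 between regions. The 95% confidence interval lay within 1 unit of 0 on the log2 scale, which is a factor of 2, for 15 of 56 members in forebrain, 15 in hindbrain and 27 between regions. For the other members the interval reached further, so a change of that size is not excluded for them.

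**Figure D2:**
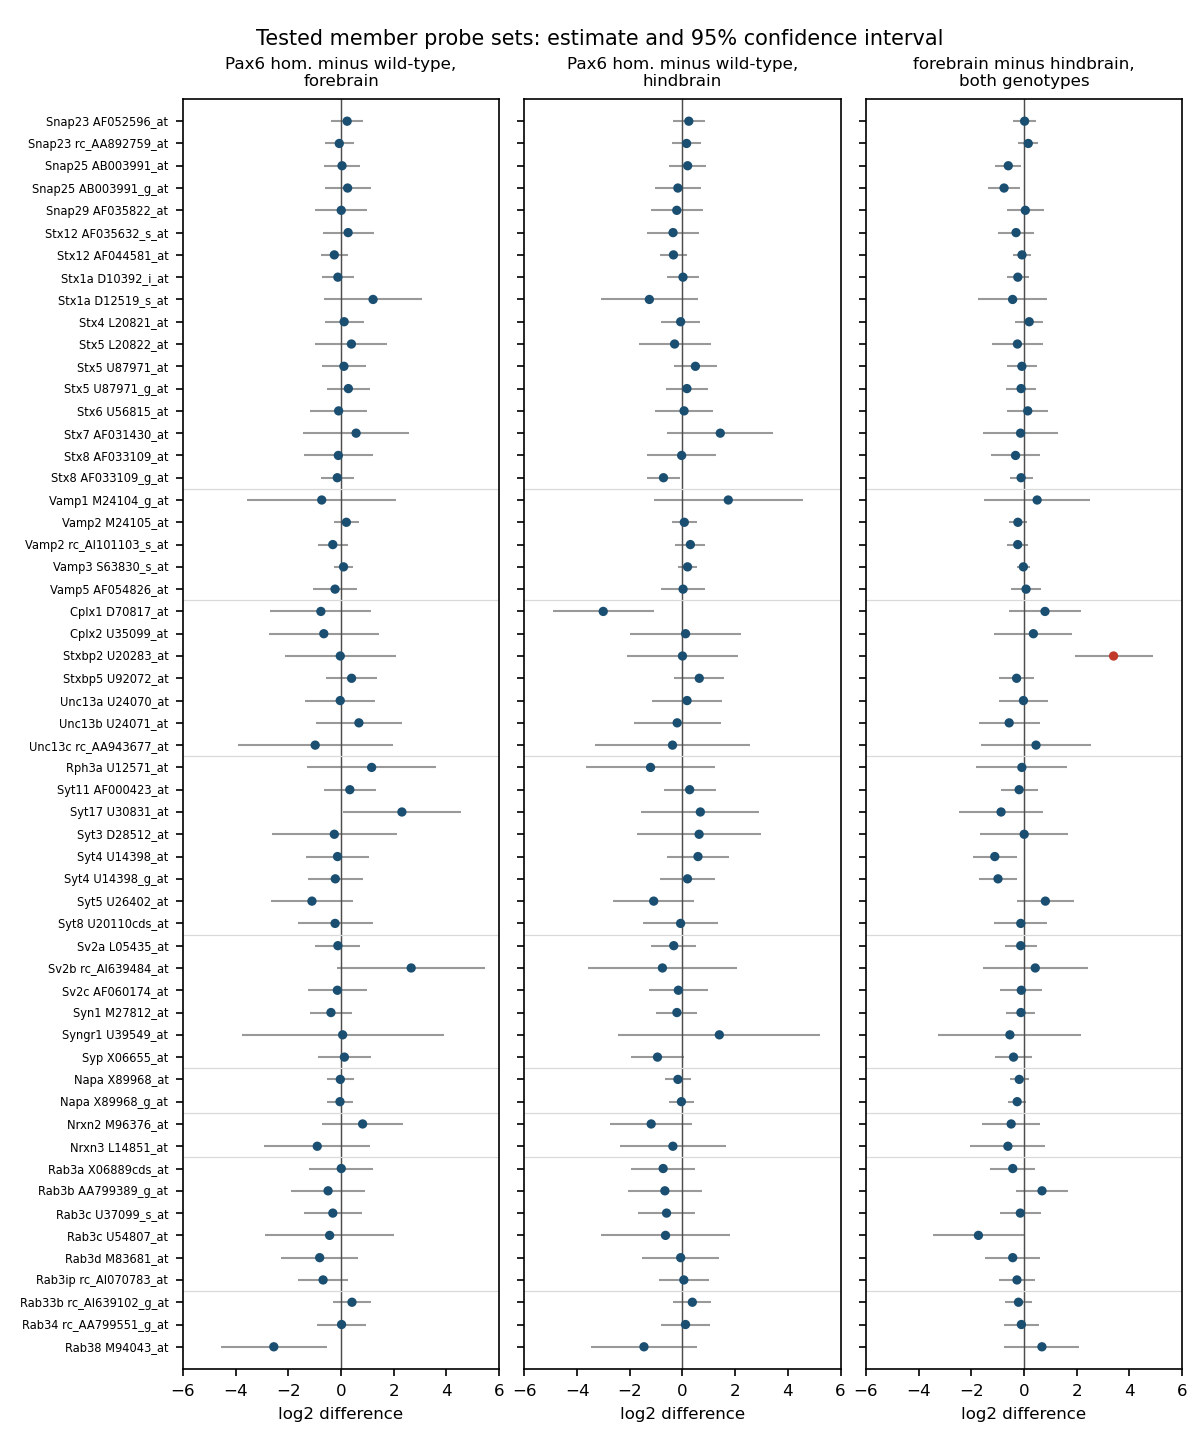
Log2 difference (points) with its 95% confidence interval (lines) for the 56 tested member probe sets, ordered by role with grey lines between roles, for Pax6 homozygous minus wild-type in forebrain and in hindbrain and for forebrain minus hindbrain over both genotypes. Red marks an adjusted p under 0.05, which only Stxbp2 reached, between regions (log2 difference 3.40 ± 0.65, SE).

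Among target-membrane SNAREs, Snap25, the neuronal partner of syntaxin at release sites, read higher on the hindbrain arrays than on the forebrain arrays with both of its probe sets that exceeded noise, one on 8 and the other on 7 arrays. The probe set AB003991_at had 1557 and 1259 in Pax6 homozygous forebrain and 1544 and 1205 in wild-type forebrain, against 2632 and 1894 in Pax6 homozygous hindbrain and 2276 and 1669 in wild-type hindbrain. All 4 hindbrain arrays lay above all 4 forebrain arrays. The probe set AB003991_g_at, made from the same transcript entry, had 676 and 497 in Pax6 homozygous forebrain and 473 and 503 in wild-type forebrain, against 909 and 784 in Pax6 homozygous hindbrain and 1112 and 817 in wild-type hindbrain, again without overlap. The log2 difference, forebrain minus hindbrain, was -0.59 ± 0.22 (SE) and -0.75 ± 0.27, and neither passed (adjusted p = 0.431 and 0.417). In tissue of mixed cells, fewer cells that make a transcript and less of it per cell cannot be told apart.

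By genotype the log2 change of Snap25 (AB003991_at) was 0.04 ± 0.31 in forebrain and 0.20 ± 0.31 in hindbrain, with 95% confidence intervals of -0.66 to 0.74 and -0.50 to 0.89. Its other probe sets, U56261_s_at and AB003992_s_at, were above noise on no array. Arrays that did not overlap between regions, with hindbrain higher, were found for 4 of 56 members (7.14%, against 4.37% of all tested). These were probe sets of Snap25 and Syt4, a pair from the same transcript entry for each gene, so each gene is counted 2 times. With forebrain higher, arrays that did not overlap were found for 2 members, Stxbp2 and Stx4 (3.57%, against 2.28%). Between genotypes within a region, with 2 arrays against 2, such an order often arises without any change. In hindbrain it was shown by 8 of 56 members with Pax6 homozygous higher (14.3%) and 10 with it lower (17.9%). In forebrain it was shown by 5 (8.93%) and 8 (14.3%). The shares over all probe sets tested were not counted, so no change is read from this order where it is given below.

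Stx1a, syntaxin 1A of the presynaptic membrane, was read by a pair of probe sets whose values differed in pattern. D10392_i_at had 1624 and 1328 in Pax6 homozygous forebrain and 1757 and 1451 in wild-type forebrain, and 1932 and 1696 in Pax6 homozygous hindbrain and 1708 and 1868 in wild-type hindbrain. D12519_s_at had 1029 and 882 in Pax6 homozygous forebrain and 1146 and 147 in wild-type forebrain, and 434 and 683 in Pax6 homozygous hindbrain and 1413 and 1198 in wild-type hindbrain. The second wild-type forebrain array was the low one, and the hindbrain arrays of the Pax6 homozygous group were the lower ones, without overlap. The log2 change of D12519_s_at was 1.22 ± 0.81 in forebrain (adjusted p = 1), and -0.27 without the second wild-type forebrain array, so that array sets the sign. In hindbrain it was -1.26 ± 0.81 (adjusted p = 0.989), and the difference between the regions was 2.47 ± 1.15 (adjusted p = 1).

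Stx8, a syntaxin of endosomes, was lower on both Pax6 homozygous hindbrain arrays with one of its probe sets. AF033109_g_at had 1066 and 1276 in Pax6 homozygous hindbrain, against 2080.3 and 1776 in wild-type hindbrain, without overlap. In forebrain it had 1394 and 1256 in the Pax6 homozygous group and 1542 and 1384 in wild-type, with overlap. On the log2 scale the change was -0.72 ± 0.27 in hindbrain (adjusted p = 0.989) and -0.14 ± 0.27 in forebrain. The second Stx8 probe set, AF033109_at, was above noise on 4 arrays and had a log2 change of -0.03 ± 0.58 in hindbrain.

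Stx12, another endosomal syntaxin, gave the same order of arrays in both regions. AF044581_at had 2093 and 2414 in Pax6 homozygous forebrain against 2931 and 2458 in wild-type forebrain, and 2242 and 2350.5 in Pax6 homozygous hindbrain against 2863 and 2958 in wild-type hindbrain. All 4 Pax6 homozygous arrays lay below all 4 wild-type arrays, with a log2 change of -0.30 ± 0.16 over both regions (adjusted p = 0.928, 95% confidence interval -0.66 to 0.06). The other Stx12 probe set, AF035632_s_at, had a log2 change of -0.04 ± 0.30. Such an order over both regions, with Pax6 homozygous lower, was shown by 3 of 56 members, Stx12, Rab38 and Rab3c (5.36%, against 1.19% of all probe sets tested). With Pax6 homozygous higher it was shown by 1, Stxbp5 (1.79%, against 2.38%). Of the first 3, Rab38 was matched by letters only and exceeded noise on 1 of 8 arrays. Neither Stx12 nor Rab3c showed the order with its other probe set.

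Stx7, a syntaxin of late endosomes, had 2410.5 and 1402 in Pax6 homozygous forebrain and 575 and 2660.5 in wild-type forebrain, and 2239 and 3278 in Pax6 homozygous hindbrain and 411 and 2443 in wild-type hindbrain. The first wild-type array was the low one in both regions. The log2 change was 0.57 ± 0.88 in forebrain, and -0.53 without that array. In hindbrain it was 1.44 ± 0.88 (adjusted p = 0.989), and 0.15 without it. Stx5, the syntaxin of the Golgi, had log2 changes in hindbrain of 0.49 ± 0.36 with U87971_at, 0.17 ± 0.35 with U87971_g_at and -0.30 ± 0.60 with L20822_at, so its probe sets differed in sign. That of L20822_at was 0.09 without the first wild-type hindbrain array. Stx4, a plasma membrane syntaxin found in most tissues, had 1083 and 877 in Pax6 homozygous forebrain and 931 and 866 in wild-type forebrain, against 846 and 745 in Pax6 homozygous hindbrain and 843 and 823 in wild-type hindbrain. Its log2 difference between regions was 0.20 ± 0.23 (adjusted p = 0.973), although the 4 forebrain arrays lay above the 4 hindbrain arrays.

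Snap23, the general counterpart of Snap25, had log2 changes of -0.07 ± 0.24 and 0.23 ± 0.27 in forebrain and of 0.16 ± 0.24 and 0.24 ± 0.27 in hindbrain (rc_AA892759_at and AF052596_at), with both probe sets above noise on all arrays. Snap29 (AF035822_at) and Stx6 (U56815_at), which act in endosomal and Golgi traffic, had log2 changes of 0.01 ± 0.44 and -0.09 ± 0.48 in forebrain and of -0.22 ± 0.44 and 0.06 ± 0.48 in hindbrain. Of the 17 target-membrane SNARE probe sets tested, 11 had a positive change in forebrain and 8 in hindbrain.

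Among vesicle SNAREs, Vamp3 (cellubrevin, the general vesicle SNARE) was measured with the narrowest interval of the 56 members tested. S63830_s_at had 12355 and 13193 in Pax6 homozygous forebrain against 10829 and 13198 in wild-type forebrain, and 12786 and 14037 in Pax6 homozygous hindbrain against 10954 and 12545 in wild-type hindbrain. The log2 change over both regions was 0.14 ± 0.11, with a 95% confidence interval of -0.12 to 0.40, and between regions -0.02 ± 0.11, with an interval of -0.28 to 0.24. Both intervals lie within 1 unit of 0.

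Vamp2, synaptobrevin of synaptic vesicles, was also above noise on all arrays. M24105_at had 3898 and 3450.4 in Pax6 homozygous forebrain and 3597 and 2824 in wild-type forebrain, and 4177 and 4034 in Pax6 homozygous hindbrain and 3981 and 3844 in wild-type hindbrain. Its change was 0.20 ± 0.21 in forebrain and 0.07 ± 0.21 in hindbrain, and forebrain minus hindbrain it was -0.23 ± 0.15 (adjusted p = 0.826). The second probe set, rc_AI101103_s_at, had a log2 change of -0.31 ± 0.25 in forebrain, opposite in sign to the first, and of 0.30 ± 0.25 in hindbrain. Its interaction of -0.61 ± 0.35 did not pass (adjusted p = 1).

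Vamp1, the synaptobrevin of spinal cord and brainstem neurons in the adult, scattered widely. M24104_g_at had 557 and 348 in Pax6 homozygous forebrain and 408 and 1314 in wild-type forebrain, and 657 and 818 in Pax6 homozygous hindbrain and 1051 and -152 in wild-type hindbrain. One wild-type hindbrain array was negative and the other was the second highest of the 8. The log2 change in hindbrain was 1.74 ± 1.25, and -0.52 without the second wild-type hindbrain array, so no direction can be given. The other Vamp1 probe set, M24104_at, was above noise on no array. Vamp5, a VAMP of muscle, had a log2 change of -0.10 ± 0.26 over both regions with AF054826_at, and its other probe set was above noise on no array. All 5 vesicle SNARE probe sets tested had a positive change in hindbrain and 2 had one in forebrain, and 0 passed in either region.

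Stxbp2 was the member that passed, higher in forebrain than in hindbrain. It encodes Munc18-2, a syntaxin-binding protein known mainly from epithelial and blood cells. U20283_at had 975 and 237 in Pax6 homozygous forebrain and 458 and 524 in wild-type forebrain, against -83.6 and -12.7 in Pax6 homozygous hindbrain and -44.5 and -47.5 in wild-type hindbrain. All 4 forebrain arrays lay above all 4 hindbrain arrays, and all hindbrain values were negative. Stxbp2 therefore met the intensity limit for testing through forebrain arrays only, which is the side on which it was called higher. The log2 difference was 3.40 ± 0.65 (adjusted p = 0.0417). Only 2 of 4 forebrain arrays, 1 of each genotype, exceeded noise. With the hindbrain arrays set to their noise level, forebrain was 1.37-fold higher. This is not a lower bound, since the other forebrain values lay under their own noise.

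Values under the floor of 45.9 were raised to it before log2, which made the 4 hindbrain values of Stxbp2 equal and took their spread out of its standard error. The call ended without any 1 of 7 arrays, that is all but the second Pax6 homozygous forebrain array (adjusted p from 0.0465 to 0.202 over the 8 omissions). It also ended when dim probe sets were kept (0.0799) and when the floor was raised to the median of all arrays (0.91, log2 difference 0.26). By genotype the log2 change was -0.03 ± 0.92 in forebrain. The blood and endothelial lists are given with the other markers.

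**Figure D3:**
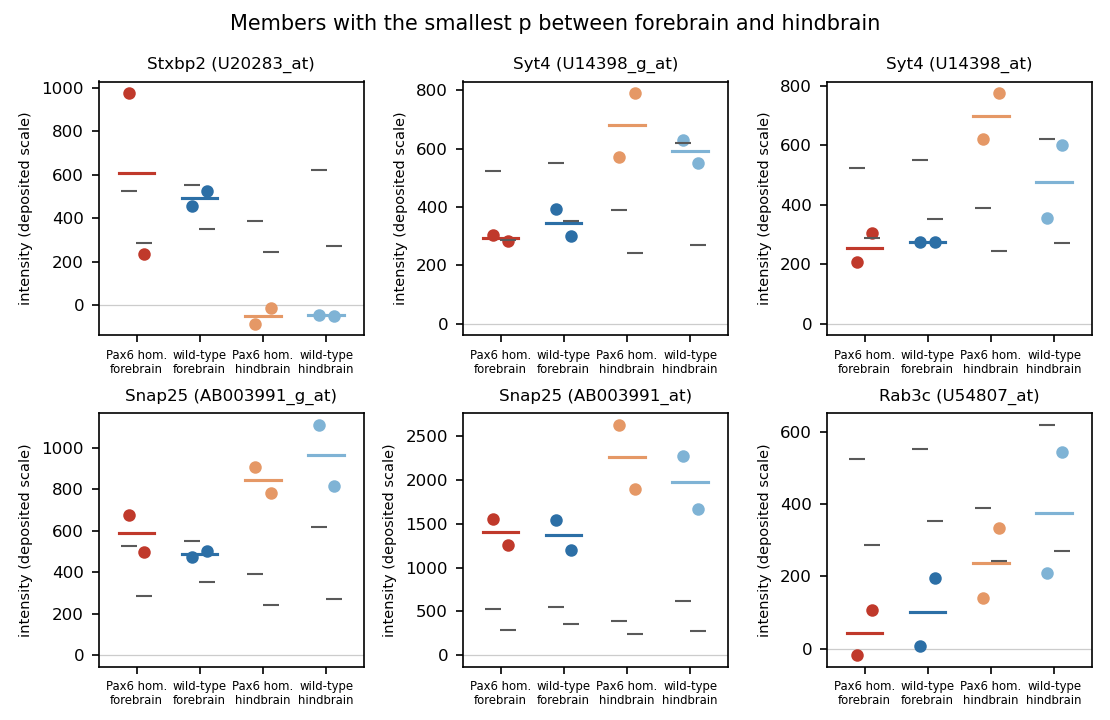
Deposited intensity on each array (points) and group mean (horizontal bars) for the member probe sets of Stxbp2, Syt4, Snap25 and Rab3c, in Pax6 homozygous and wild-type forebrain and Pax6 homozygous and wild-type hindbrain (2 arrays each). Short grey dashes give the noise level of each array; all 4 hindbrain arrays of both Snap25 and both Syt4 probe sets lie above all 4 forebrain arrays, and those of Stxbp2 lie below.

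Among the other SNARE regulators, Stxbp5 (tomosyn, an inhibitor of SNARE assembly) had 564 and 630.5 in Pax6 homozygous forebrain against 558 and 366 in wild-type forebrain, and 723 and 852 in Pax6 homozygous hindbrain against 556 and 458 in wild-type hindbrain. All 4 Pax6 homozygous arrays lay above all 4 wild-type arrays. On the log2 scale the change was 0.40 ± 0.42 in forebrain, 0.64 ± 0.42 in hindbrain and 0.52 ± 0.30 over both, and did not pass (adjusted p = 0.928). Unc13a, the priming factor Munc13-1 whose promoter is shown above, had 726 and 418 in Pax6 homozygous forebrain and 866 and 366 in wild-type forebrain, and 669.8 and 535 in Pax6 homozygous hindbrain and 755 and 373 in wild-type hindbrain. Its first array was the higher one in every group, and its change over both regions was 0.07 ± 0.41, with a 95% confidence interval of -0.87 to 1.01. Unc13b, a second Munc13, was above noise on 2 arrays and had a log2 change of 0.24 ± 0.51.

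Cplx1, complexin 1, which clamps and promotes fusion, had the smallest p of the members in the hindbrain genotype comparison. D70817_at had -138 and -27.2 in Pax6 homozygous hindbrain against 528 and 258 in wild-type hindbrain, and 265 and 114 in Pax6 homozygous forebrain against 402 and 217 in wild-type forebrain. Both negative values fell in the Pax6 homozygous hindbrain. The log2 change was -3.01 ± 0.84 in hindbrain and -0.77 ± 0.84 in forebrain (adjusted p = 0.989 and 1). None of the 8 arrays exceeded its noise level, both Pax6 homozygous hindbrain values were set to the floor, and no fold is given. Its difference between regions was 0.80 ± 0.60, and -0.022 when the floor was raised to the median of all arrays. Cplx2 was likewise in the noise, with a log2 change over both regions of -0.27 ± 0.65.

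Among calcium sensors, Syt4, a synaptotagmin of dense-core vesicles, was the gene with the smallest p between regions after Stxbp2. U14398_g_at had 305 and 284 in Pax6 homozygous forebrain and 391 and 300.3 in wild-type forebrain, against 571 and 790.0 in Pax6 homozygous hindbrain and 629.5 and 550.2 in wild-type hindbrain. U14398_at, from the same entry, had 206 and 306 in Pax6 homozygous forebrain and 275 and 276 in wild-type forebrain, against 621 and 775 in Pax6 homozygous hindbrain and 355 and 599.5 in wild-type hindbrain. With both probe sets every hindbrain array lay above every forebrain array. The log2 difference, forebrain minus hindbrain, was -0.98 ± 0.32 and -1.11 ± 0.37, and neither passed (adjusted p = 0.322 and 0.338). No forebrain array of U14398_g_at exceeded noise, so hindbrain was at least 1.52-fold higher there. By genotype the log2 change of U14398_g_at was -0.22 ± 0.46 in forebrain and 0.19 ± 0.46 in hindbrain, and that of U14398_at was -0.13 ± 0.52 and 0.59 ± 0.52, none past the test.

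Syt5, also a synaptotagmin of dense-core vesicles, read lower on average in the Pax6 homozygous groups of both regions. U26402_at had 1951 and 643 in Pax6 homozygous forebrain against 2865 and 2024 in wild-type forebrain, and 698 and 586 in Pax6 homozygous hindbrain against 2683 and 694 in wild-type hindbrain. The forebrain groups did not overlap, while the second wild-type hindbrain array lay among the Pax6 homozygous ones. On the log2 scale the change was -1.10 ± 0.68 in forebrain, -1.09 ± 0.68 in hindbrain and -1.10 ± 0.48 over both (adjusted p = 0.928). Its first array was the higher one in all 4 groups.

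Syt17, an atypical synaptotagmin of the Golgi, had 999 and 403 in Pax6 homozygous forebrain against 357 and -32.5 in wild-type forebrain, where neither array exceeded noise. In hindbrain it had 1109.8 and 389.7 in the Pax6 homozygous group and 476 and 355 in wild-type. The log2 change was 2.31 ± 0.98 in forebrain, at least 1.44-fold higher against noise, and 0.68 ± 0.98 in hindbrain (adjusted p = 1 and 1). One wild-type forebrain value was raised to the floor, and without that array the forebrain change was 0.83. Again the first array was the higher in all groups. Syt11, which restrains endocytosis, had log2 changes of 0.33 ± 0.43 in forebrain and 0.27 ± 0.43 in hindbrain and was above noise on 7 arrays. Syt3, Syt8 and Rph3a (rabphilin, a Rab3 effector) were above noise on 3, 3 and 1 arrays, with changes over both regions of 0.19 ± 0.73, -0.15 ± 0.44 and -0.03 ± 0.76.

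Among vesicle membrane and coat proteins, Syp, synaptophysin, was lower on both Pax6 homozygous hindbrain arrays. X06655_at had 1057 and 1023 in Pax6 homozygous hindbrain against 2135 and 1888 in wild-type hindbrain, without overlap. In forebrain it had 1779.8 and 741 in the Pax6 homozygous group and 839 and 1317 in wild-type, where the groups overlapped. Its log2 change was -0.95 ± 0.44 in hindbrain (adjusted p = 0.989), with a 95% confidence interval of -1.94 to 0.05. In forebrain it was 0.13 ± 0.44, with an interval of -0.87 to 1.12. The difference between the regional changes was 1.08 ± 0.62 (adjusted p = 1).

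Syn1, synapsin I of the vesicle surface, had 937 and 872 in Pax6 homozygous forebrain against 1333 and 1041 in wild-type forebrain, and 1198 and 898 in Pax6 homozygous hindbrain and 1454 and 992 in wild-type hindbrain. Its change was -0.38 ± 0.34 in forebrain and -0.21 ± 0.34 in hindbrain, and neither passed (adjusted p = 1 and 1). Sv2a, a transporter-like protein of most synaptic vesicles, had 746 and 696 in Pax6 homozygous forebrain and 684 and 898 in wild-type forebrain, and 676 and 786 in Pax6 homozygous hindbrain and 751 and 1120.1 in wild-type hindbrain. Its change over both regions was -0.23 ± 0.26, and that of Sv2c, its relative, -0.15 ± 0.35.

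Sv2b (rc_AI639484_at) had 481 and 176 in Pax6 homozygous forebrain against 42.2 and 23 in wild-type forebrain, all below the noise of their arrays, so its log2 change of 2.66 ± 1.24 gives no fold and its size follows the floor. The same holds for its interaction of 3.42 ± 1.75, and the interactions of Vamp1 and Rab3ip, -2.47 ± 1.76 and -0.73 ± 0.59, did not pass either. The other Sv2b probe set, L10362_at, was above noise on no array. Syngr1, the vesicle protein synaptogyrin, was above noise on 4 arrays with U39549_at, namely the first array of every forebrain group and both arrays of Pax6 homozygous hindbrain. Its values there were 683 and -58.1 in Pax6 homozygous forebrain and 628 and -100.5 in wild-type forebrain, and 452 and 366 in Pax6 homozygous hindbrain and 519 and -170.2 in wild-type hindbrain, with the first array the higher one in every group. The other Syngr1 probe sets, U39549_g_at and rc_AA799879_at, were above noise on no array.

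For disassembly, Napa (alpha-SNAP, the adaptor that brings NSF to SNARE complexes) was above noise on all arrays with both probe sets. X89968_g_at had 5404 and 7456 in Pax6 homozygous forebrain and 5959 and 7143 in wild-type forebrain, and 7244 and 7928 in Pax6 homozygous hindbrain and 7062 and 8598 in wild-type hindbrain. Its genotype change over both regions was -0.04 ± 0.15, with a 95% confidence interval of -0.38 to 0.30, and its log2 difference between regions -0.26 ± 0.15. X89968_at gave -0.10 ± 0.16 and -0.18 ± 0.16, and the interval of the genotype change was -0.46 to 0.25.

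Of the adhesion genes, Nrxn2, a neurexin of the presynaptic membrane, was above noise on 6 arrays with M96376_at and on none with rc_AI070512_s_at. M96376_at had 402 and 1472 in Pax6 homozygous forebrain and 286 and 665 in wild-type forebrain, and 463 and 621 in Pax6 homozygous hindbrain against 916 and 1631 in wild-type hindbrain. The hindbrain groups did not overlap, and the forebrain groups did. On the log2 scale the change was 0.82 ± 0.68 in forebrain, which was -0.12 without the second Pax6 homozygous forebrain array, and -1.19 ± 0.68 in hindbrain (adjusted p = 1 and 0.989). Nrxn3 was above noise on 1 array and had a log2 change of -0.63 ± 0.62 over both regions.

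**Figure D4:**
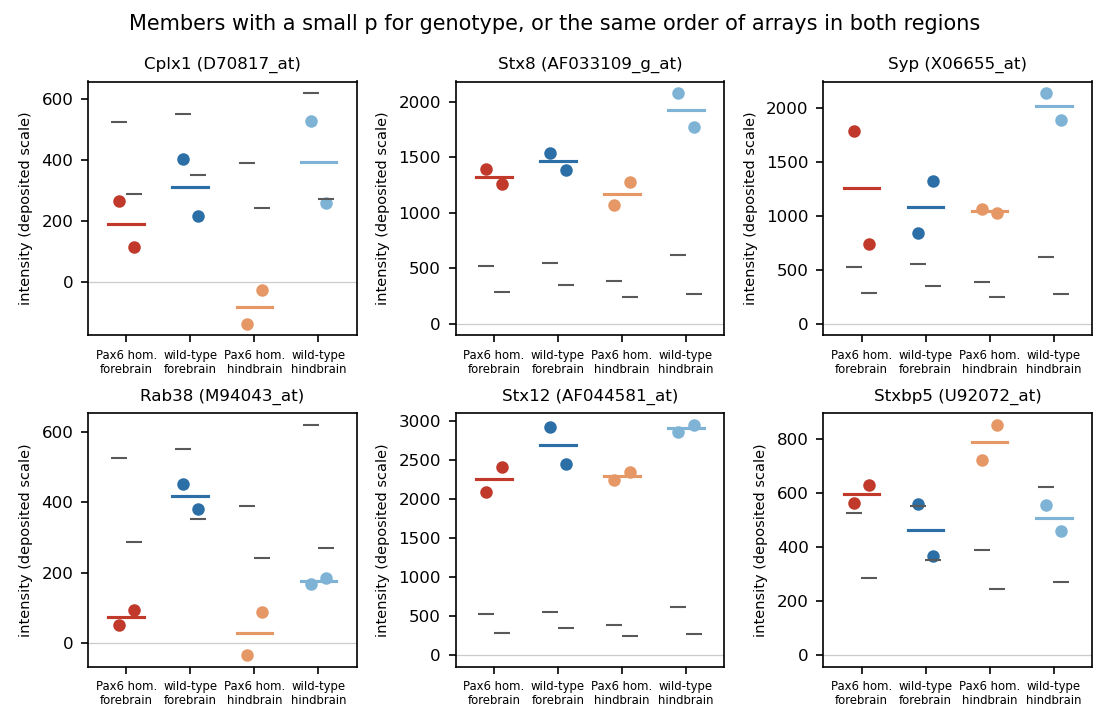
Deposited intensity on each array (points) and group mean (horizontal bars) for Cplx1, Stx8, Syp, Rab38, Stx12 and Stxbp5, in Pax6 homozygous and wild-type forebrain and Pax6 homozygous and wild-type hindbrain (2 arrays each), with the noise level of each array as short grey dashes. The 4 Pax6 homozygous arrays lie below the 4 wild-type arrays for Stx12 and Rab38 and above them for Stxbp5, and the Cplx1 values all lie under the noise level of their arrays.

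Of Rab3 and its partners, all 6 probe sets tested had a negative change over both regions, from -0.58 to -0.32 on the log2 scale, and 0 passed. These probe sets read 5 genes, and 46.2% of all genes tested had a negative change over both regions. Rab3a, the main Rab of synaptic vesicles, had 741 and 429.9 in Pax6 homozygous hindbrain against 1059 and 831 in wild-type hindbrain, without overlap. In forebrain it had 679 and 436 in the Pax6 homozygous group and 818 and 358 in wild-type. Its log2 change was -0.73 ± 0.53 in hindbrain (adjusted p = 0.991) and 0.01 ± 0.53 in forebrain.

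Rab3c, a close relative on synaptic vesicles, had 439 and 414 in Pax6 homozygous forebrain against 622 and 450.2 in wild-type forebrain, and 419 and 428 in Pax6 homozygous hindbrain against 897 and 462 in wild-type hindbrain (U37099_s_at). Every Pax6 homozygous array lay below every wild-type array, with a log2 change of -0.46 ± 0.34 over both regions (adjusted p = 0.928). Its other probe set, U54807_at, was above noise on 2 hindbrain arrays and on no forebrain array, with a log2 difference, forebrain minus hindbrain, of -1.73 ± 0.76 (adjusted p = 0.616). No fold is given, since its mean in hindbrain lay under the noise of the forebrain arrays.

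Rab3b, a Rab3 of endocrine and other secretory cells, had a log2 change of -0.58 ± 0.43 over both regions and a difference, forebrain minus hindbrain, of 0.69 ± 0.43 (AA799389_g_at). Rab3d and Rab3ip (Rabin3, a Rab exchange factor) had log2 changes of -0.81 ± 0.65 and -0.68 ± 0.41 in forebrain, and of -0.07 ± 0.65 and 0.05 ± 0.41 in hindbrain. All 4 forebrain values of Rab3d lay under the noise of their arrays, so their order carries no information. Rab3ip had 493 and 339 in Pax6 homozygous forebrain, against 704 and 609 in wild-type forebrain, without overlap, and 3 of these 4 arrays exceeded noise.

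Among genes matched by letters only, Rab38, a Rab of pigment granules and lysosome-related organelles, had the smallest p of the members in forebrain and over both regions. M94043_at had 52.5 and 95.5 in Pax6 homozygous forebrain against 452 and 381 in wild-type forebrain, and -33.1 and 90.3 in Pax6 homozygous hindbrain against 168 and 186 in wild-type hindbrain. All 4 Pax6 homozygous arrays lay below all 4 wild-type arrays, and 1 of the 8 arrays, in wild-type forebrain, exceeded noise. The log2 change was -2.55 ± 0.88 in forebrain and -2.01 ± 0.62 over both (adjusted p = 1 and 0.884). With the Pax6 homozygous forebrain arrays set to their noise level, Rab38 was 1.07-fold lower there than in wild-type forebrain. This is not a lower bound, since 1 wild-type forebrain value lay under its own noise. No fold is given over both regions. The other Rab38 probe set, rc_AI136175_at, was above noise on no array. Rab33b, a Golgi Rab, had a log2 change of 0.39 ± 0.23 and Rab34 one of 0.07 ± 0.29 over both regions.

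The rest of the vesicle cycle, a list of endocytosis, priming, transporter, calcium channel and scaffold genes outside the members, gave no calls by genotype and 2 between regions. Of 94 genes listed, 67 were on the array and 53 were tested with the brightest probe set of each. By genotype 0 of 53 passed in either direction in forebrain, hindbrain or over both regions, and the medians were 0.01 in forebrain and 0.09 in hindbrain. The smallest p by genotype over both regions belonged to Atp6v0c (D10874_g_at), a subunit of the proton pump that acidifies vesicles, with a log2 change of -0.67 ± 0.18. It had 9248 and 10774 in Pax6 homozygous forebrain against 16664 and 17271 in wild-type forebrain, and 16375 and 9070.5 in Pax6 homozygous hindbrain against 18694 and 17773 in wild-type hindbrain, and did not pass (adjusted p = 0.801). Scamp2, a secretory carrier membrane protein, and Exoc5, of the exocyst, had log2 changes of 0.68 ± 0.23 and 0.55 ± 0.22 over both regions. Cltb, a clathrin light chain, had -0.53 ± 0.23 in forebrain, and Dnajc5 (cysteine string protein) and Dlg1 had 0.38 ± 0.16 and 1.30 ± 0.55 in hindbrain, none past the test. Slc18a3 (U09211_at), the vesicular acetylcholine transporter, had -367 and 994 in Pax6 homozygous hindbrain against 2230.2 and 1468 in wild-type hindbrain. Its negative value was raised to the floor, and the log2 change was -3.08 ± 1.14 in hindbrain (adjusted p = 0.989), and -0.86 without that array. Over both regions it was -1.63 ± 0.80, and -0.52 without that array.

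Between regions, 0 of these 53 genes passed as higher in forebrain and 2 passed as higher in hindbrain. They were Cadps (CAPS, which primes dense-core vesicles) and Sncg (gamma-synuclein). Cadps (U16802_at) had 1023 and 1516 in Pax6 homozygous forebrain and 1108 and 1239 in wild-type forebrain, against 2574 and 2154 in Pax6 homozygous hindbrain and 2619.7 and 2801 in wild-type hindbrain (log2 difference -1.06 ± 0.20, adjusted p = 0.0376). Sncg (X86789_at) had 1286 and 1777 in Pax6 homozygous forebrain and 1156 and 2446 in wild-type forebrain, against 3176 and 3424 in Pax6 homozygous hindbrain and 5528 and 6150.0 in wild-type hindbrain (log2 difference -1.46 ± 0.25, adjusted p = 0.0245). The median difference of the list, forebrain minus hindbrain, was -0.16, beside -0.01 over all genes tested, and 46 of 53 had a negative value, against 51.9% of all genes tested.

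Markers of neurons had mostly negative differences, forebrain minus hindbrain (12 of 14, against 51.9% of all genes tested). That sign was also found for Snap25, Syt4, Cadps and Sncg, and for 40 of the 56 member probe sets tested. The other 16 were positive, among them Syt5 (0.81), Rab3b (0.69) and Cplx1 (0.80, under noise on all arrays). Of 24 neuron markers listed, 16 were on the array, 14 were tested, 11 were above noise on all arrays, and Thy1 alone was above noise on none. Between regions 4 of 14 passed as higher in hindbrain (Nefm, Nefl, Ina and Ncam1), 0 passed as higher in forebrain, and the median difference was -0.59. Their summed intensity lay between 52704 and 59433 in Pax6 homozygous forebrain and 58002 and 60132 in wild-type forebrain, against 92219 to 97250 in Pax6 homozygous hindbrain and 113537 to 128745 in wild-type hindbrain. By genotype 0 of 14 passed, with 8 negative in forebrain (median -0.02) and 13 negative in hindbrain (median -0.25). The part of neuron number in the values of Snap25, Syt4, Syp, Stx8 and Rab3a was not tested.

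The other marker lists bear on the dissections. Muscle genes were summed at 810 to 1178 in Pax6 homozygous forebrain and 1062 to 1665 in wild-type forebrain, against 20155 to 21180 in Pax6 homozygous hindbrain and 20783 to 21449 in wild-type hindbrain. Beside the Stxbp2 difference, blood genes had 7 of 7 positive differences between regions (median 0.18, 0 passed) and endothelial genes 0 of 3 (median -0.19), with Vwf above noise on no array. Blood genes were summed at 147746 to 150857 and 175512 to 190651 in Pax6 homozygous and wild-type forebrain, and at 139679 to 142868 and 155829 to 168622 in Pax6 homozygous and wild-type hindbrain. Endocrine genes, whose cells share the regulated secretory pathway, had 0 of 5 past the test in each comparison, with Pcsk2 and Scg2 above noise on no array. The astrocyte markers Aqp4, Aldh1l1 and S100b were above noise on no array, and of oligodendrocyte markers Mbp, Mog and Mobp likewise. Progenitor genes had a median genotype change of -0.28 in forebrain and -0.14 in hindbrain and mesenchyme genes of -0.08 and -0.06, and of these 2 lists 1 gene, Fabp7, passed in both regions. Macrophage genes had medians of -0.27 and -0.10, with Csf1r and Lyz2 above noise on no array. The brightest genes of these lists were Actc1, Acta1, Tnnt2 and Myl4 for muscle, Hbe1, Hbg1, Hbb and Hbb-b1 for blood, Vim, Id3, Ptn and Nes for progenitors, and Col3a1, Col2a1, Sparc and Col1a1 for mesenchyme. They were Crmp1, Uchl1, Nefm and Ina for neurons, Cd14, C1qb, Ptprc and Cd53 for macrophages, Ins2, Ins1, Scg3 and Chgb for endocrine cells and Cnp and Mag for oligodendrocytes. Which part any of these cells has in the members' values was not tested.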

How the data were processed

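Gene expression was measured on 8 Affymetrix rat U34A arrays, 2 for each of 4 groups. The deposited values are linear intensities per probe set. No label names the software or scaling behind them. From the values, means after trimming 2% at each end lay between 2504.1 and 2504.8 on every array, and 18.3 to 22.3% of intensities were negative. The number of arrays limits the precision.

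Intensities under the pooled 25th percentile (45.9) were raised to it before taking log2. Testing was limited to probe sets where 2 or more arrays exceeded 255, the 40th percentile of all arrays (5881 of them). Control probe sets (59) were left out. A 4-group model over all 8 arrays was fitted with limma 3.58.1 in R 4.3.3 (lmFit, eBayes with an intensity trend, two-sided, Benjamini-Hochberg adjustment over all probe sets tested, threshold 0.05), with 4 residual degrees of freedom. Every adjusted p, SE and 95% confidence interval comes from this fit, and changes are on the log2 scale after the floor. That floor lay under the noise level of every array (243 to 619.8). Differences within noise can therefore give large log2 changes, and the size of changes in dim probe sets depends on the floor. Folds against noise compare the mean log2 value of the brighter side with that of the dim side. Arrays of the dim side were set to their noise level where they lay under it. Arrays of the brighter side were not, so a fold is given as at least a value only where all of them exceeded noise.

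Of the platform's probe sets, 7018 had 1 gene symbol and 308 several. No probe set with several symbols held a member's. Replicate arrays of a group correlated at r = 0.899 to 0.947. Deviations of arrays with the same number correlated at 0.275 to 0.465 over all 6 pairs of groups. This pairing was seen in the data and is not given by the labels. The main fit held no term for it, so the reported p-values, SEs and intervals do not account for array number. A replicate block was fitted only as an alternative. On simulated forebrain data over 5881 probe sets, with 50 changed at each size, 14% of log2 changes of 1, 42% of 2, 86% of 3 and 88% of 4 were recovered, with 6 false calls. The simulation drew independent values, without the floor and without the correlation of same-numbered arrays. It also held many more changed probe sets than were called by genotype here, which eases the adjustment. These shares therefore do not give the sensitivity of the tests on the deposited data.

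Named members are those past the threshold, the 5 genes in each direction with the smallest p per comparison (3 for the interaction), a list of core release genes, genes with several probe sets and the brightest 5 genes. From the other lists the 2 smallest p in each direction and the brightest 4 genes were named. Where a list gene has several probe sets, the brightest was used. Members, lists and tests were chosen with earlier results of these data known. Alternatives were a replicate block, no filter, another floor, quantile normalization, no intensity trend, region-only fits and leaving out each array.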

Additional observations from a re-analysis of the deposited data

How the results depend on the processing

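Under every alternative the count of members past the threshold stayed at 0 for genotype in forebrain, in hindbrain and over both regions and for the interaction. Between regions the 1 member called, Stxbp2, was lost without a filter on dim probe sets (0 called), with a floor at the median of all arrays (0 called), and in 7 of the 8 fits that left out an array (0 to 1 called over the 8). It passed with the replicate block (adjusted p = 0.0239), with quantile normalization (0.0311) and without an intensity trend (0.0248). With the replicate block, which treats same-numbered arrays as pairs, all probe sets called between regions numbered 139, against 89 without it, in hindbrain 2 against 1 and over both regions 3 against 2. It changed no call among members. Among the 46 member changes named for the smallest p, 4 reversed under some alternative, and the 9 alternatives that ended a call all concerned Stxbp2. The reversed ones were Stx1a in forebrain (-0.27 to 2.70 over the fits that left out an array, lowest without the second wild-type forebrain array), Nrxn2 in forebrain (-0.12 to 1.76, lowest without the second Pax6 homozygous forebrain array), Vamp1 in hindbrain (-0.52 to 3.998, lowest without the second wild-type hindbrain array) and Cplx1 between regions (-0.022 with the floor at that median). The cause of these reversals was not tested. With 2 arrays a group, signal over background was the limit for the 34 probe sets above noise on no array.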
